A study of Mus musculus with 2 samples.

Results

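The Notch pathway was read through 10 genes: the ligand genes Jag1, Jag2 and Dll1, the receptor genes Notch1, Notch2 and Notch3, the ligand-selectivity modifier gene Lfng, and the target genes Hes1, Hey1 and Heyl. The members were all probe sets that GEO's platform annotation assigns to exactly 1 gene, that gene being among these 10. The rule found 19 probe sets of 34945 that name a single gene, and all 10 genes of the 18193 named. No probe set named a member together with another gene.

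Expression was measured on Affymetrix arrays in interdigital tissue, the mesenchyme and its covering between the forming digits, from hind limbs of mouse embryos at stage E13.5, when the interdigit is due to regress. The labels place the dissection in the regions they call ID2 and ID3. One group was wild type of the strain B6, and the other was homozygous for Hammer toe, a mouse mutation that leaves webbing between the digits. The strain behind the Hammer toe embryos was not given, so strain and mutation cannot be told apart. The design text speaks of 3 sets of 5 littermates, 15 embryos per genotype, but the values come from 1 array per genotype, and how the embryos were combined on it was not stated. There were therefore no replicates, no test was possible, and every difference below is between 2 arrays.

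Notch signalling passes between touching cells. A ligand of the Jagged or Delta-like family on 1 cell binds a Notch receptor on its neighbour, the receptor is cut by an ADAM protease and by gamma-secretase, and its freed intracellular part joins the DNA-binding protein Rbpj to switch on genes of the Hes and Hey families. In the limb, Jag2 is made in the apical ectodermal ridge, the thickened epithelium at the limb margin, and mice without functional Jag2 have fused digits.

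Values are MAS5 intensities, a linear brightness per probe set, with each array scaled by the authors to the same trimmed mean. The floor used was 78.1, which is the median over both arrays without their control probe sets, because lower readings carry little information. A probe set with at least 1 array above the floor was taken as measured. Of the 19 member probe sets, 15 were measured, all of them above the floor on both arrays. The other 4 were under it on both and give no ratio. Intensities of different probe sets depend on their probes, so an order of brightness between genes is no order of expression. Below, the brightest gene of a group is only the one picked by rule to be named.

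Markers of the labelled tissue were read on both arrays. All 9 markers of limb mesenchyme and interdigit were measured. The brightest was Hoxd13, a distal Hox gene, at 17291 on the wild-type and 15779 on the Hammer toe array. Aldh1a2, which encodes a retinoic acid synthase, read 13129 and 11474. Of all 18193 named genes 11621 were measured, so this is a weak check of the tissue. Of the 9 markers, 2 were higher and 7 lower in Hammer toe, with log2 ratios from -0.41 to 0.54. Shh, at 22.5 on the wild-type and 192 on the Hammer toe array, differed by at least 2.45-fold, and Hhip, an inhibitor and target of the hedgehog pathway, by 3.75-fold, both toward higher values in Hammer toe.

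The sequences just upstream of Jag1 and Jag2 are shown because these were the member genes with a probe set outside the range of 95% of probe sets of like intensity, and that of Lfng because it alone among the member promoters held a match to the Rbpj motif. RefSeq's table for GRCm38.p6 had promoters for 7 of the 10 members, and none for Hes1, Hey1 and Heyl. Each line gives the 250 bases before the transcription start, 5′ to 3′ on the gene's strand. For Jag1 it is chr2:137116521-137116770 on the minus strand, for Jag2 chr12:112929496-112929745 on the minus strand and for Lfng chr5:140607091-140607340 on the plus strand. Capitals mark matches to the motifs described after the sequences.
Jag1: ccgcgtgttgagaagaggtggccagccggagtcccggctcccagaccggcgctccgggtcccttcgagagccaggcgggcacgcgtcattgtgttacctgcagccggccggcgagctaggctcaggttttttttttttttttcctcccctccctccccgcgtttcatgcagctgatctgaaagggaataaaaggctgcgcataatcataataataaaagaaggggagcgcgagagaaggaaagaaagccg
Jag2: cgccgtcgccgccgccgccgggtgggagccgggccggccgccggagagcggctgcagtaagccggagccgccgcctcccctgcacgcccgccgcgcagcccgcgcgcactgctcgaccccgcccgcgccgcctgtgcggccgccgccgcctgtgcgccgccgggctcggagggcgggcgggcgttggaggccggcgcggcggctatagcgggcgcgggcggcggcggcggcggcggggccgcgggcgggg
Lfng: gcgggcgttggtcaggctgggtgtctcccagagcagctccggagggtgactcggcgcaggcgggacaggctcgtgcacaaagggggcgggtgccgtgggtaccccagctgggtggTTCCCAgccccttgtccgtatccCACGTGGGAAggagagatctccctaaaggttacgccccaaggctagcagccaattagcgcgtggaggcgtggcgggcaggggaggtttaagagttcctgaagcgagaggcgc

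On both strands of these windows 4 motifs were sought. The Rbpj core was searched as TGGGAA, and it was found in 21.6% of all 32851 promoter windows of this length. Its longer form, searched as GTGGGAA and holding the core within it, was found in 5.42%. The E-box, a hexamer that basic helix-loop-helix factors bind, was searched as CACGTG and found in 6.02%. The core bound by the hedgehog effectors of the Gli family was searched as GACCACCC and found in 0.703%. The Lfng window held the Rbpj core with its first base at position -108, counted from -1 at the base before the start, within the longer form at -109. It held a second core on the opposite strand with its leftmost base at -135, and an E-box at -112 that overlaps the longer form. None of the 8 windows of the 7 matched members held the Gli core, and Jag1 and Jag2 held none of the 4 motifs, which says only that these letters are not in these windows. The windows were rich in G and C, at 56.0% to 87.2% with a median of 66.0%, against a median of 52.4% over all windows. Jag2 was the extreme, with 87.2% G and C and 54 CG pairs, while Jag1 had 57.2% and 20.

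The plot of member intensities sets the arrays side by side for all 19 probe sets.

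**Figure D1:**
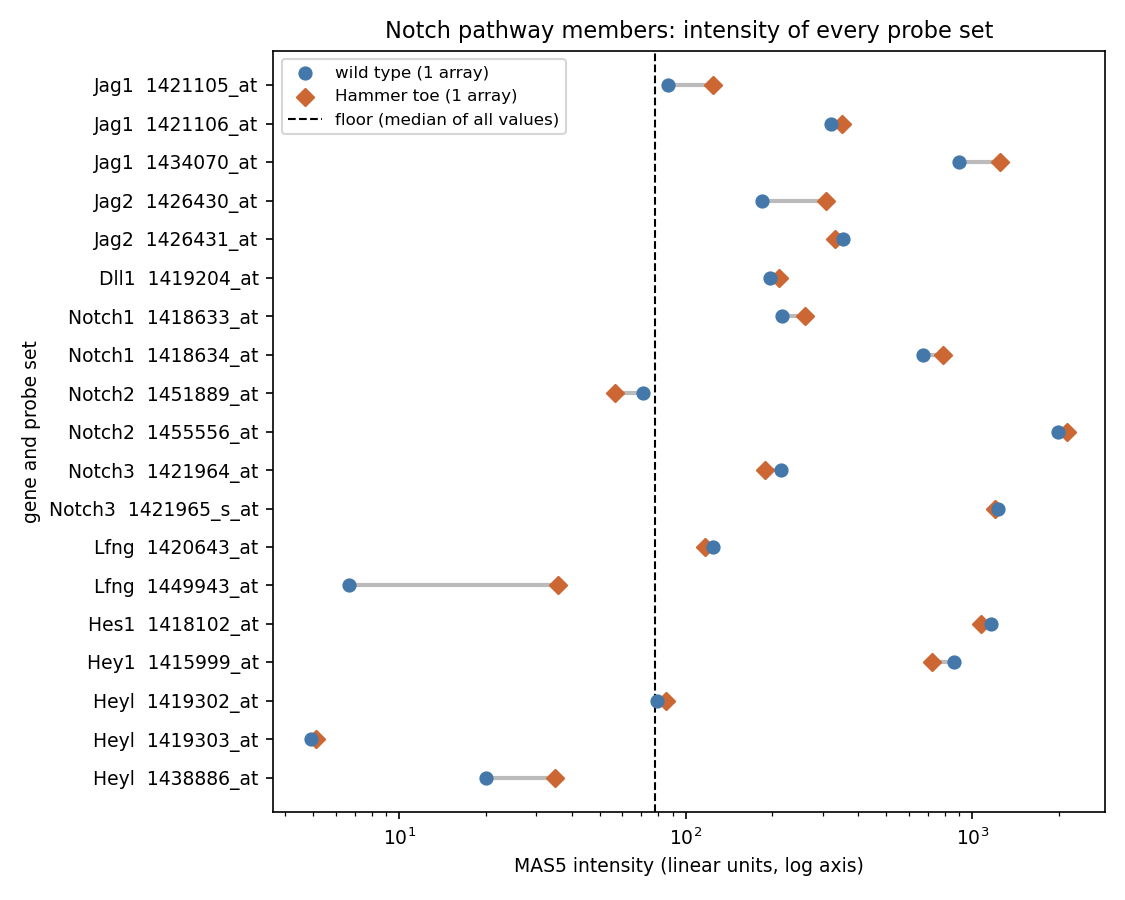
MAS5 intensity (log axis) of each of the 19 member probe sets on the wild-type array (circles) and the Hammer toe array (diamonds), 1 array each, with the floor at 78.1 as a dashed line. Jag1 has all 3 pairs of points above the floor with Hammer toe to the right, while the 2 probe sets of Jag2 go opposite ways.

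Taken over all members, the Notch genes lay close to wild type, and the largest ratios were those of a Jag2 probe set, which its brighter probe set did not share, and of Jag1. By the brightest probe set of each gene, 5 of 10 genes were higher in Hammer toe and 5 were lower, with a median log2 ratio (Hammer toe over wild type) of 0.03, against 0.01 over all 11621 measured genes. None of the 10 reached 1.5-fold on its brightest probe set, where 3.56% of all measured genes did in either direction. Counted as probe sets, 1 of 15 reached 1.5-fold, a probe set of Jag2, against a background of 3.9% of 20995 measured probe sets. At a smaller size, a log2 ratio of 0.32 or more to either side, the count was 3 of 15, 2 of Jag1 and 1 of Jag2, against 16.8%. These shares are near the background or rest on so few probe sets that nothing particular to the members follows from them.

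The spread of all probe sets narrowed with intensity, so each member was read against probe sets of its own class. Where the brighter array read up to 200, 95% of probe sets had log2 ratios within 0.67 of 0. Between 200 and 1000 the limit was 0.53, and above 1000 it was 0.32. Of the 15 member probe sets, 2 lay outside these ranges, both higher in Hammer toe. For 1 of them, Jag1 on 1434070_at, this depended on the class rule. It passed 1000 only on the Hammer toe array, and its ratio of 0.48 would lie inside the limit of 0.53 below that.

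**Figure D2:**
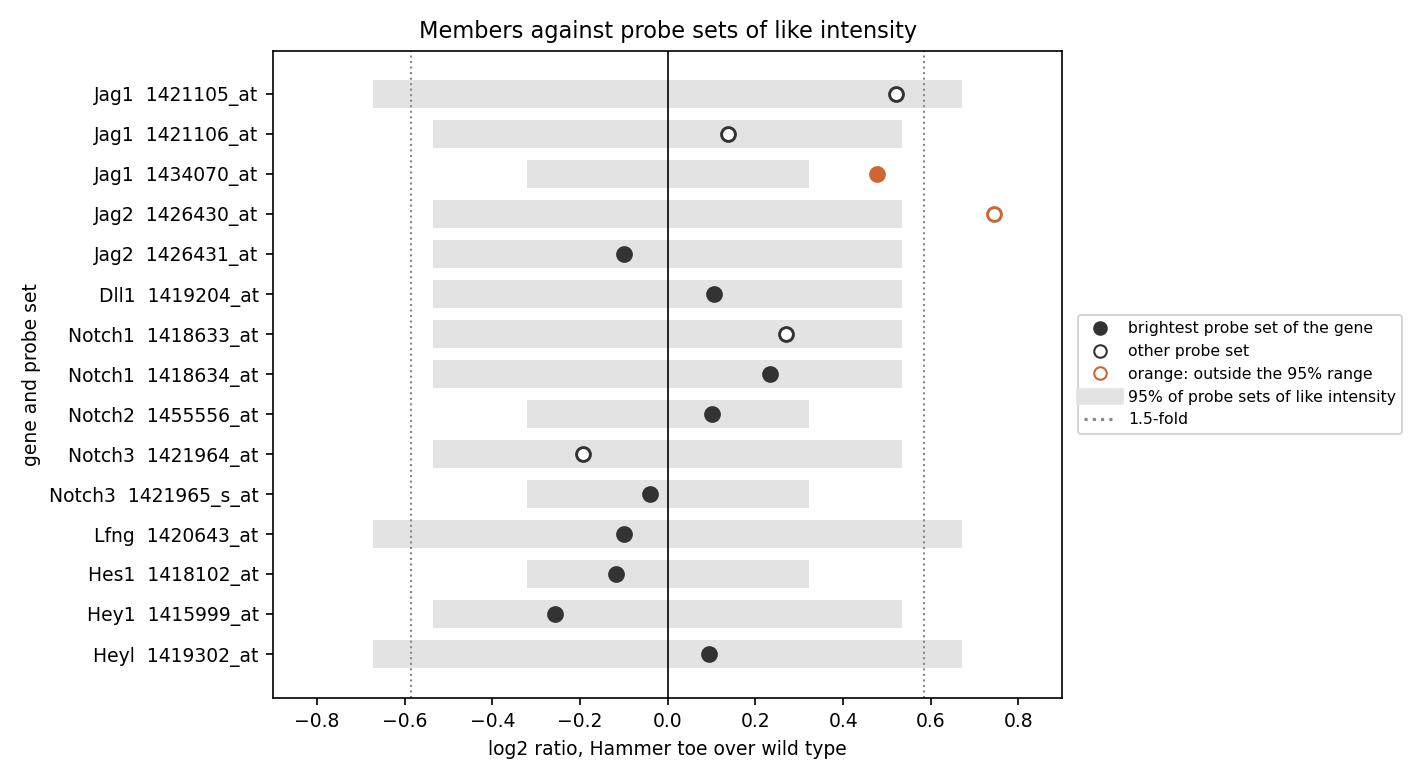
Log2 ratio, Hammer toe over wild type, of the 15 measured member probe sets (filled, the brightest of its gene; open, others). Grey bars span 95% of probe sets in the same intensity class, set by the brighter array, and dotted lines mark 1.5-fold. Only Jag1 at 0.48 and Jag2 at 0.74, in orange, lie beyond their bars. Jag1 is in its class through the Hammer toe array alone.

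Among the ligands, Jag1 was higher on every probe set. Jag1 encodes a Jagged ligand that is also made in vessel walls and many mesenchymal tissues. Its brightest probe set, 1434070_at, read 896 on the wild-type and 1248 on the Hammer toe array, a 1.39-fold difference and a log2 ratio of 0.48 where 95% of probe sets above 1000 lay within 0.32. At that brightness 2.59% of probe sets had a ratio of 0.32 or more toward Hammer toe. Only the Hammer toe array passed 1000, and in the class below, with its limit of 0.53, the ratio would lie inside. The probe set 1421105_at read 86.9 and 125, a log2 ratio of 0.52. At this lower brightness, close to the floor in wild type, the ratio stayed inside the range of its class, 0.67. The third, 1421106_at, read 320 and 352, a log2 ratio of 0.14. The 3 probe sets thus spanned 0.38 on the log2 scale, a range reached by 28.0% of the 5134 genes with several probe sets measured above the floor in both genotypes.

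Jag2, the ligand gene whose loss fuses the digits, gave opposed readings. The probe set 1426430_at read 184 on the wild-type and 308 on the Hammer toe array, a 1.68-fold difference and a log2 ratio of 0.74 where 95% of its class lay within 0.53. In that class 2.07% of probe sets lay 1.5-fold or more toward Hammer toe. The brightest Jag2 probe set, 1426431_at, read 355 and 331, a log2 ratio of -0.10. The gap between them was 0.84 on the log2 scale, and 2.88% of genes with several probe sets had a gap as large, the median gap being 0.24. The direction for Jag2 therefore depended on the probe set chosen, and the data used here do not settle which one follows the transcript. Dll1, a Delta-like ligand gene with 1 probe set, read 197 and 212, a log2 ratio of 0.11.

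The receptor genes stayed inside the ranges of their classes. Notch1 was slightly higher on both probe sets, which differed by 0.04 on the log2 scale. It read 670 on the wild-type and 788 on the Hammer toe array on its brightest probe set and 216 and 261 on the other, log2 ratios of 0.23 and 0.27. Notch2 read 1993 and 2139, a log2 ratio of 0.10, while a further probe set read under the floor at 70.7 and 56.5. Notch3, a receptor best known from the mural cells that wrap vessels, was slightly lower on both. Its brightest probe set, of the _s_at type, which can bind more than 1 transcript, read 1230 and 1196, a log2 ratio of -0.04, and the other read 215 and 188, a ratio of -0.19.

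Lfng encodes an enzyme that extends sugars on Notch and so shifts its response between Delta-like and Jagged ligands. It read 125 on the wild-type and 116 on the Hammer toe array, a log2 ratio of -0.10 at low intensity. Its second probe set read 6.66 and 35.7, both under the floor. The promoter with the Rbpj motif shown above thus belongs to a gene whose measured ratio was near 0.

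The target genes, which report on pathway output, showed no common direction. Hes1, a transcriptional repressor, read 1159 on the wild-type and 1068 on the Hammer toe array, a log2 ratio of -0.12. Hey1, a related repressor, read 861 and 720, 1.20-fold lower and the lowest ratio of all members at -0.26. Its class range was 0.53 to either side. Heyl, another Hey family repressor, read 79.6 and 85.0, only just above the floor, a log2 ratio of 0.09. The other 2 probe sets of Heyl were under the floor, at 4.92 and 5.13 and at 20.1 and 34.9.

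Of the 4 members with more than 1 measured probe set, 3 had all of them on 1 side of wild type: Jag1 and Notch1 higher and Notch3 lower. Jag2 was the exception. The share of all genes with their probe sets on 1 side was not computed, so nothing particular to the members follows. For comparison, the SD between probe sets within a gene was 0.21 on the log2 scale over all such genes. Of the 15 member ratios, 9 were smaller than that. The median size of a log2 ratio, regardless of sign, was 0.14 for these 15 and 0.13 over all 20995 measured probe sets. Most probe sets of the arrays were therefore also below 0.21, and the count is not particular to the members.

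**Figure D3:**
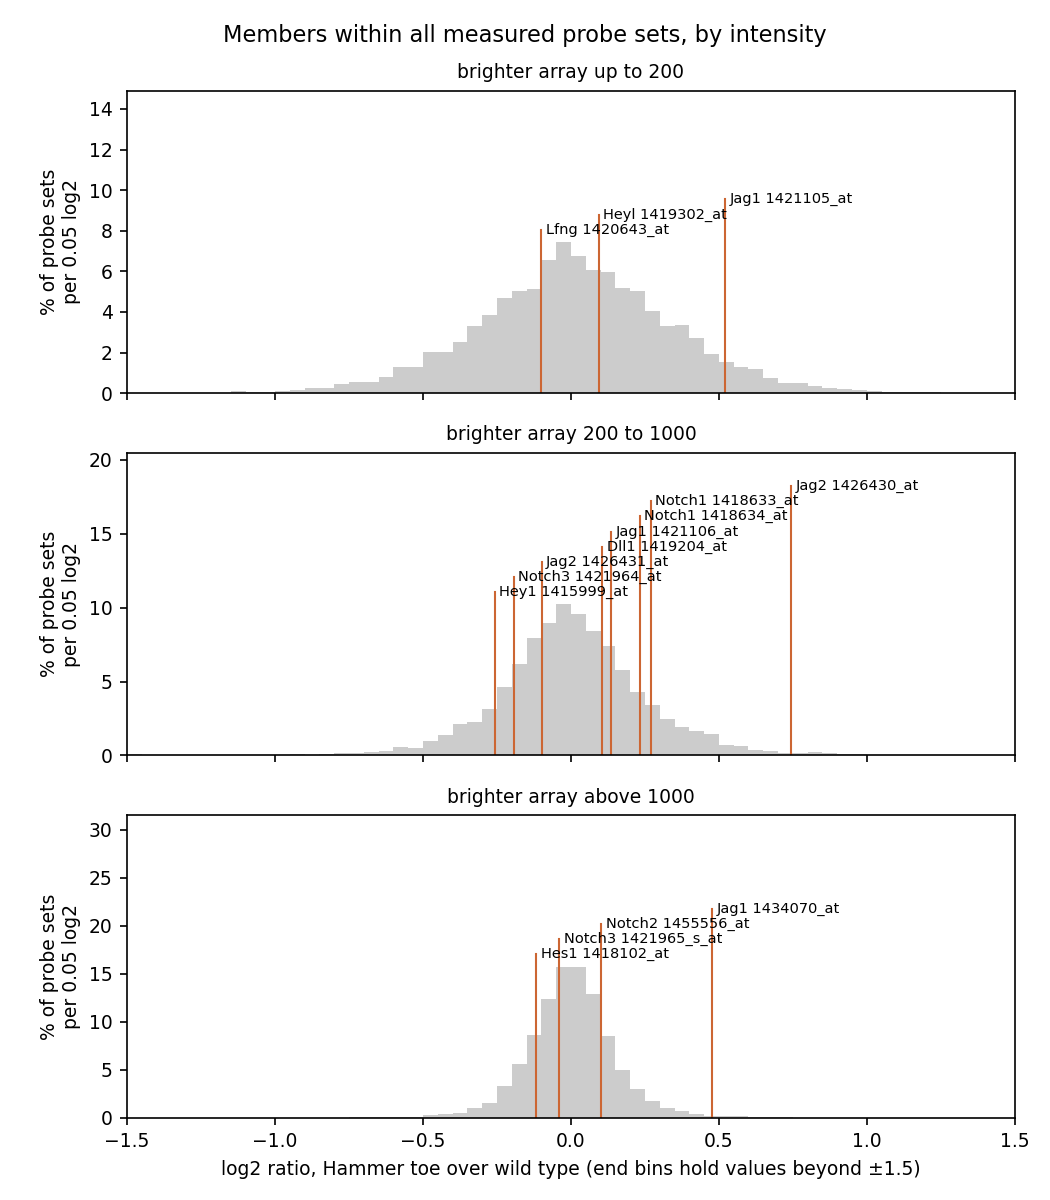
Distribution of log2 ratios (Hammer toe over wild type) over all measured probe sets with 1 gene (grey, percent of probe sets per bin), in 3 classes of the brighter array's intensity, with member probe sets as orange lines. The Jag1 line at 0.48 stands in the tail of the brightest class and the Jag2 line at 0.74 in that of the middle class, while the other lines fall within the bulk.

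The rest of the pathway was read from a list of 48 further genes. Of these, 45 had a probe set of their own and 39 were measured, 19 higher and 20 lower in Hammer toe. Their median log2 ratio was -0.02. At least 1.5-fold were 3 of the 39, 2 higher and 1 lower, against backgrounds of 2.17% higher and 1.39% lower among all measured genes. Dll3, Dner, Hes5, Hes7, Maml2 and Neurl3 were under the floor on the brightest probe set of each.

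The 3 genes past 1.5-fold were 2 ligands and a glycosyltransferase. Dlk1, a Delta-like protein without the domain that binds Notch in the usual ligands, read 98.2 on the wild-type array and 225 on the other, a 2.29-fold difference. This rested on a probe set of the _s_at type, and its other one was under the floor, at 14.3 and 3.97. Mfng, a fringe enzyme related to Lfng, read 145 and 258, 1.78-fold higher on its single probe set. Dll4, the Delta-like ligand of sprouting vessels, read 137 and 84.0, 1.63-fold lower, and its second probe set, under the floor on both arrays, read 70.6 and 51.5.

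Other ligands, receptors and targets lay closer to wild type or gave split readings. Notch4, a receptor of endothelium, read 503 on the wild-type and 351 on the Hammer toe array, a log2 ratio of -0.52, just inside the class range of 0.53. Dlk2 had log2 ratios of 0.42 and -0.64 on its probe sets. Among the further targets, Nrarp, a feedback inhibitor and the brightest of them, read 1227 and 1270, and its ratios were 0.05 and 0.33. Hey2 stood at 0.30. Hes6, which opposes Hes1, had ratios of -0.39 and 0.13, the first from its brightest probe set and outside its class limit of 0.32. That probe set read 1004 on the wild-type and 767 on the Hammer toe array, so it only just entered the class above 1000. In the class below, with its limit of 0.53, it would lie inside.

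On the brightest probe sets, the machinery that serves all Notch signals was near wild type. Of 8 measured cleavage genes, 5 were higher and 3 lower, with a median of 0.02. Adam10, the protease of the first cut and the brightest of the group, read 3904 and 4038, a log2 ratio of 0.05. On the brightest probe sets the range in this group was -0.20 to 0.27, the latter for Psenen, a gamma-secretase subunit. Dimmer probe sets of Aph1a and Adam17 went further, to 0.48 and 0.45, inside their class limit of 0.53. In the nuclear complex 5 of 6 were lower, but by little, with a median of -0.04. Snw1, a cofactor and the brightest there, stood at -0.03, and the 3 probe sets of Rbpj lay at -0.17, 0.01 and -0.04. Dimmer probe sets of Kat2a, at 0.50, and Maml1, at -0.45, lay further out, inside their class limits of 0.67 and 0.53.

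Ligand endocytosis genes were too few to give a direction and turnover genes were mixed. Of 4 measured ligand endocytosis genes, 1 was higher and 3 lower on the brightest probe sets. Their median was -0.25, with a range of -0.48 to 0.15. Over all 11621 measured genes, 5616 were lower. Mib1, the ubiquitin ligase that makes ligands active and the brightest of 4 measured genes in its group, read 2436 on the wild-type and 1748 on the Hammer toe array, a log2 ratio of -0.48. This lay outside the class limit of 0.32. Its other probe sets had ratios of 0.30 and 0.82, the latter also outside its limit of 0.53, so its direction, like that of Jag2, depended on the probe set. In the turnover group 6 of 10 were higher and 4 lower, with a median of 0.05. The range on the brightest probe sets was -0.46 to 0.44. Sel1l, the brightest of that group, stood at 0.15 on its brightest probe set, and its others lay between -0.06 and 0.46. Numb, an inhibitor of Notch, stood at -0.30 on its brightest probe set. Its other probe set went the opposite way, a bound of 0.18 with the wild-type array under the floor. Poglut1, a glycosyltransferase of the receptor and the brightest of its group, was at -0.02.

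**Figure D4:**
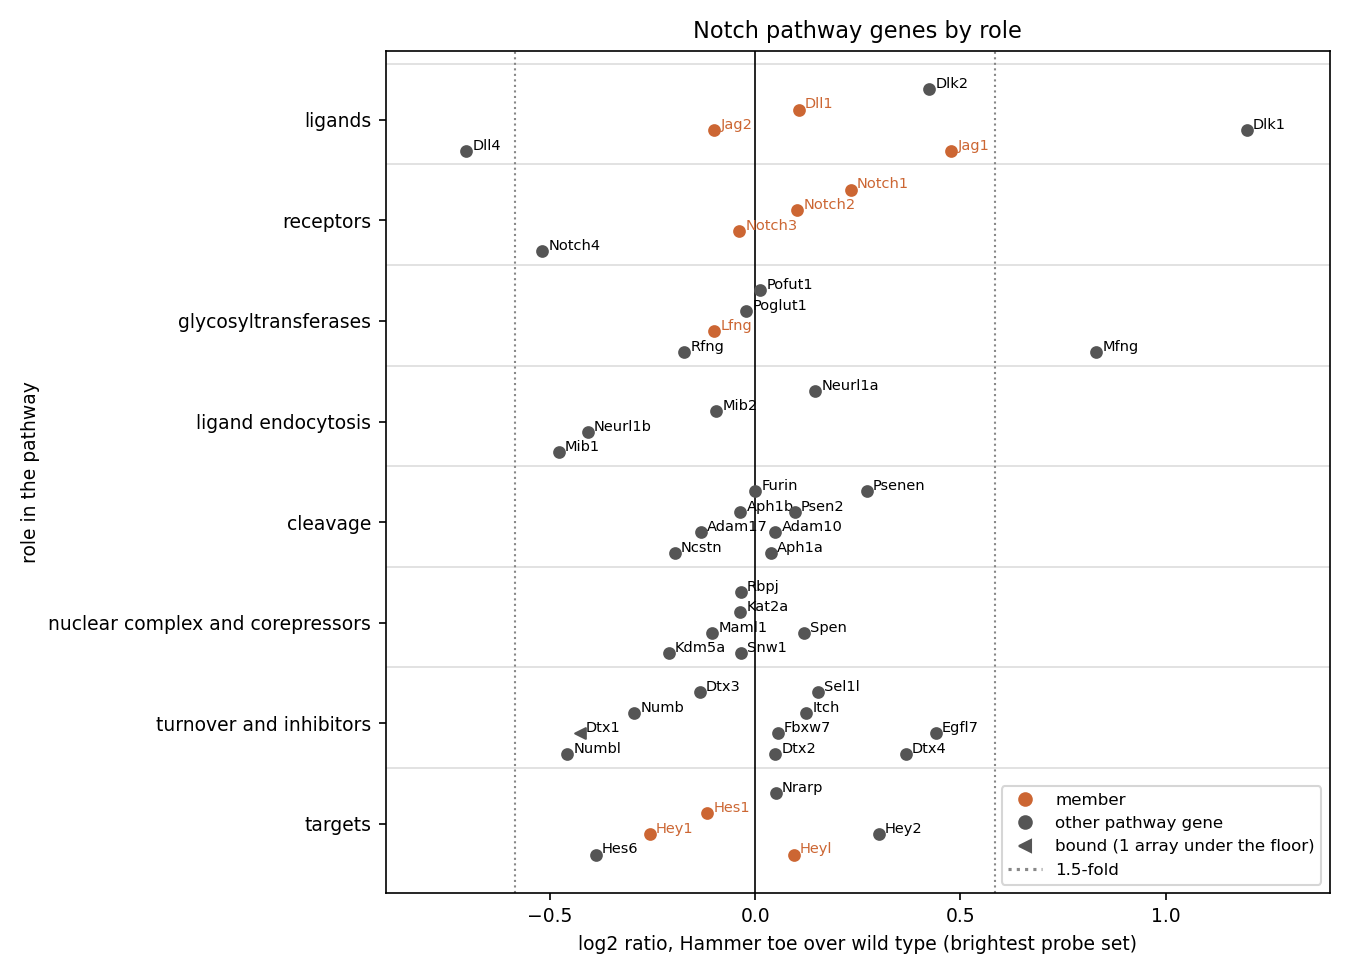
Log2 ratio, Hammer toe over wild type, of the brightest probe set of the 10 members (orange) and 39 other measured pathway genes (grey), in rows by role, with 1.5-fold as dotted lines. Dlk1 and Mfng lie beyond the right line and Dll4 beyond the left, while the cleavage and nuclear genes cluster around 0.

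Notch genes are used by several cell types of the dissected tissue, so markers of those types were read alongside. In bulk tissue, fewer cells of a type and less RNA per cell cannot be told apart. The ridge, given above as the site of Jag2, was read together with the rest of the surface ectoderm. Markers of this joint list leaned toward Hammer toe in 10 of 12. Their median log2 ratio was 0.34, and their intensities summed to 11250 on the wild-type and 14298 on the Hammer toe array. Perp, Epcam, Krt14 and Krt5, the brightest of them, stood at 0.49, 0.57, -0.05 and 0.29, and all 12 were above the floor on both arrays. Fgf8, the defining ligand gene of the ridge itself, went the other way, from 182 to 148. Its log2 ratio of -0.30 lay inside the range of its class, 0.67. Sp8, another gene of the joint list, went from 322 on the wild-type to 433 on the Hammer toe array. No direction for the ridge alone follows. The part of the ectoderm in the Jag1 and Jag2 readings was not tested.

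Endothelial markers, beside Dll4 and Notch4, were mixed. Of 11 measured, 5 were higher and 6 lower, with a median of -0.03. They had sums of 5989 on the wild-type and 6109 on the Hammer toe array. Without Esam, the marker with the highest ratio, the sums were 5281 and 5074, so their direction rested on that gene. Leaving it out was not part of the plan. Cdh5, Esam, Erg and Emcn stood at 0.02, 0.55, -0.21 and -0.04. The part of these cells in the Dll4 and Notch4 readings was not tested. Mural markers, beside Notch3 and Heyl, were split 4 and 4, with a median of -0.02 and sums of 4476 and 4864. The 4 brightest were the 4 higher ones, Pdgfrb at 0.06, Acta2 at 0.34, Kcnj8 at 0.68 and Tagln at 0.95. The 4 lower ones were Cspg4 at -0.11, Abcc9 at -0.25, Rgs5 at -0.26 and Des at -0.30. For Des this is a bound, with the Hammer toe array under the floor.

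Further cell types also differed between the arrays. Muscle lineage markers were higher in 4 of 5 measured, while the progenitor genes Pax3, Pax7 and Myf5 were under the floor on both arrays. The sums over all 8 of these genes were 981 and 1494. Macrophage markers were higher in 5 of 6, with sums of 2067 and 2670. Markers of Schwann cells and nerve were at or above wild type in all 3 measured, with Sox10 at the floor. Their sums of 636 and 871 include Foxd3, which was under the floor on both arrays. Cartilage markers were lower in 7 of 8, with sums of 14348 and 9166, and erythroid markers were lower in 5 of 5, with sums of 57039 and 49091. The part of these cells in the Notch gene readings was not tested.

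**Figure D5:**
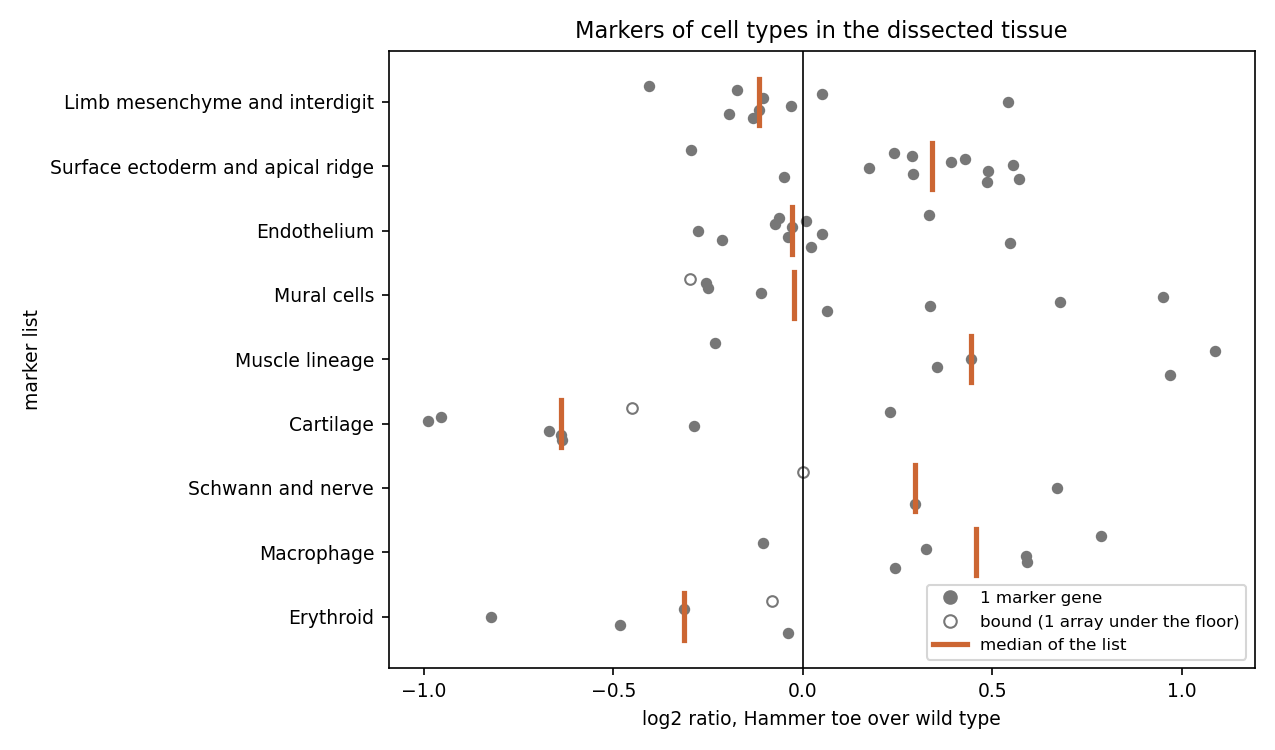
Log2 ratio, Hammer toe over wild type, of each measured marker gene (points; open points are bounds with 1 array under the floor) in 9 cell type lists, with the median of each list as an orange bar. The ectoderm median lies at 0.34 and the cartilage median at -0.64, while the endothelial and mural medians lie near 0.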

How the data were processed

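The deposited intensities, on a linear scale, are MAS5 signals that the authors made in Affymetrix Expression Console. The source is the submitters' processing notes, and the version is not given in the sources used here. Trimmed by 2% at each end, both arrays averaged 500.003, so a shift of most transcripts in 1 direction cannot be seen. After 64 control probe sets were removed, 45037 remained, and symbols came from GEO's platform annotation, updated through the gene ID with RefSeq's GRCm38.p6 table.

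Ratios were taken on the log2 scale with values under the floor (the 50th percentile of all values, 78.1) set to the floor. With 1 array under the floor the ratio is a bound. The probe set brightest on average stood for its gene. A single array per genotype allows no test, so sizes were set against all measured probe sets. Over the 18 spiked hybridisation controls the SD of the log2 ratio was 0.06. The number of arrays limits the precision. The steps were tested on simulated data, with planted changes larger than any member ratio and with reduced noise. That test does not cover ratios as small as those of the members. Python 3.11.15, pandas 2.3.3 and statsmodels 0.14.6 were used.

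The members, lists and thresholds were chosen with earlier results of these data known. All 10 members are named with every probe set. Of the 48 other pathway genes, those at 1.5-fold or more and the brightest of each role are named by rule; of each of the first 4 marker lists, at most the 4 brightest. Notch4, Dlk2, Hey2, Hes6, Psenen, Rbpj, Numb, Fgf8, Sp8 and Sox10, and the genes under the floor, were named after their values were seen. So were Aph1a, Adam17, Kat2a, Maml1 and the 4 lower mural markers. The endothelial sums without Esam were not planned. With 2 arrays, no gene was sought for likeness of pattern. Alternatives covered scaling, the floor, the choice of probe set and the size of change.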

Additional observations from a re-analysis of the deposited data

How the results depend on the processing

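All 11 alternatives were planned. Median centring, quantile normalization and a lowess correction moved no member ratio by more than 0.0229 on the log2 scale, and none of the 96 recomputed member ratios changed sign. A move was counted when it passed 0.21, the SD between probe sets of a gene; only Jag1 on 1421105_at did, to 0.30 with a pseudocount in place of the floor. Of 15 member probe sets, 1 reached 1.5-fold; the count was 3 of 19 with no floor, 3 of 18 with the floor at the 25th percentile, 0 of 6 with it at the 75th, 0 of 19 with the pseudocount, 0 at 2-fold and 3 at a log2 ratio of 0.32. The probe sets that joined this count with a lower floor or none were 1 of Lfng and 1 of Heyl, which read under 78.1 on both arrays. The count of member genes, 0, became 1 (Jag1) at a log2 ratio of 0.32 and stayed 0 in the other 10 alternatives. The count of other pathway genes, 3 of 39, became 5 of 45 with no floor and 2 of 45 with the pseudocount. With the floor at the 25th percentile it was 4 of 44, and at the 75th 0 of 25. It was 2 of 31 without probe sets of the types _s_at, _x_at and _a_at, 1 at 2-fold and 12 at a log2 ratio of 0.32. In the other alternatives it stayed at 3. The members' median was -0.00 when probe sets of the types _s_at, _x_at and _a_at were left out and 0.10 when probe sets were averaged. No paired analysis was possible because there was 1 array per genotype.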
